A study of Macaca mulatta with 4 samples.

Results

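Chromosome 5 of the rhesus macaque (Macaca mulatta) was examined as a set of DNase hotspots in 4 libraries from embryos at the morula stage. Its members were all hotspots listed on chromosome 5, 18506 of the 328084 hotspots in the 4 lists, and the 13737 regions, of 222970 in all, that remained after overlapping or touching hotspots of the 4 lists were merged. Single hotspots were chosen by position alone, but the chromosome itself was selected on the covered length of these same lists, which an earlier look had shown to be higher in GG than in AG embryos there, in blocks wider than single hotspots. The GG against AG values below are therefore a description of what chose the chromosome, and they carry no test of their own.

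GG embryos are gynogenetic, with nuclear genomes from the oocyte only, and AG embryos are androgenetic, with nuclear genomes from sperm only. Each group had 2 libraries, GG replicates 1 and 2 and AG replicates 1 and 2, and all 4 shared the stage and the digestion, which took 5 min at 37 °C with DNase I at 40 U/ml. The labels give no strain, number of embryos or pooling, and nothing in them states that the replicates were separate embryos, so p-values cover only the spread among these libraries, and that spread may be technical. Parental origin cannot be told apart from the oocyte or sperm donors or from how the embryos were made. The label of morula was not checked against marker genes, because no gene annotation of the build of the files was used here. Positions are 1-based on rheMac8, and no gene is named.

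DNase I cuts DNA that is free of tightly packed nucleosomes more readily than DNA that is packed, and hotspots are the places where cuts pile up above the local level. Hotspots include promoters and enhancers, the short elements through which genes are switched on. In mammalian embryos the maternal and paternal genomes enter development with different chromatin, since sperm DNA is packed largely with protamines and oocyte DNA with histones, and both are reorganised in the cleavage divisions before the blastocyst forms. Macaque chromosome 5 corresponds to human chromosome 4, which is poor in genes for its size. In libraries of pooled cells, a stretch open in fewer cells and a stretch less open in every cell cannot be told apart.

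The number of hotspots on chromosome 5 was 6074 and 4977 in GG replicates 1 and 2, against 2715 and 4740 in AG replicates 1 and 2. They covered 6.03 and 5.11 Mb of DNA in the GG libraries, against 2.55 and 4.41 Mb in the AG libraries. Both GG libraries were above both AG libraries, but AG replicate 2 lay close to GG replicate 2 and AG replicate 1 lay far below all others. The lists themselves differed in length, with 93171 and 84865 hotspots for GG and 64730 and 85318 for AG, so shares of each list are given as well. Chromosome 5 held 5.90% and 5.48% of covered length in the GG lists, against 3.76% and 5.23% in the AG lists. The groups did not overlap in that share either, by a margin of 0.256 percentage points between the lower GG and the higher AG library, while the AG libraries lay 1.47 points apart. The GG minus AG difference in this share was 1.20 points with all libraries, 0.465 without AG replicate 1 and 1.93 without AG replicate 2.

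Chromosome 5 was sparse in hotspots in every library. The density was 31.9 and 26.1 hotspots per Mb in GG and 14.3 and 24.9 in AG, against 35.0 and 32.1 in GG and 25.0 and 32.4 in AG over the other 19 autosomes. Counted from the densest autosome down, it ranked 14 and 17 of 20 in the GG libraries and 20 and 19 in the AG libraries. The stretch between neighbouring hotspots had a median of 16.0 and 18.1 kb in GG, against 28.8 and 19.4 kb in AG. Its longest stretch without a hotspot was 476 and 519 kb in GG, against 1311 and 801 kb in AG, and stretches over 500 kb numbered 0 and 1 in GG and 42 and 5 in AG. Over all 4 lists at once, the longest stretch free of hotspots was 349 kb, chr5:178321785-178671052.

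Hotspots on chromosome 5 were also narrow. Width is a component of the covered length that the chromosome was selected on, so it is described with no test. The median width was 848 and 869 bp in GG libraries and 818 and 834 bp in AG libraries, against 909 and 923 bp in GG and 909 and 894 bp in AG on the other autosomes. By median width chromosome 5 ranked 19 or 20 of the 20 autosomes in each library. The mean of the library medians was 858.5 ± 14.8 bp in GG and 826 ± 11.3 bp in AG (SD, n = 2 each), a difference of 32.5 bp with no overlap between groups. Its size depended on the lists, since it was 94 bp with each list shortened by score to the same number of hotspots and 186 bp with each shortened to the same covered length. Wide hotspots of over 2 kb made up 7.75% and 8.78% of the chromosome's hotspots in GG, against 6.04% and 5.44% in AG. On the other autosomes they made up 11.3% and 10.8% in GG, against 9.04% and 6.77% in AG, so GG was higher there as well. High-scoring hotspots were few: the authors' score put 6.03% and 6.81% of GG and 8.32% and 7.78% of AG hotspots of chromosome 5 in the top 10% of their own list, so by this measure the AG libraries were higher.

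The extent of the GG against AG difference was mapped in windows of 200 kb. Covered length was scaled to the same autosomal total in each library, and differences are log2 of GG over AG after an offset of 500 bp was added, which shrinks the differences of sparse windows. A window was called GG-higher when both GG libraries exceeded both AG libraries and the mean difference was at least 1, that is 2-fold, and AG-higher in the reverse case. Of 953 windows on chromosome 5, 943 had the minimum mean of 400 scaled bp. The GG-higher windows numbered 233 (24.7% of 943), beside 13.3% of windows on all autosomes, and the AG-higher windows 39 (4.14%), beside 8.83% on all autosomes. Chromosome 5 ranked 1 of 20 autosomes in the first share and 19 in the second, and since it was picked for this contrast the ranks only restate the choice. Without the demand of 2-fold, GG lay above AG without overlap in 341 windows (36.2%, beside 24.8% on all autosomes), AG above GG in 92 (9.76%, beside 22.2%), and the groups overlapped in 510 (54.1%). Limma fitted over all 13238 autosomal windows called none at a Benjamini-Hochberg adjusted p of 0.05. Its smallest adjusted p was 0.297, and 1726 windows (13.0%) had an unadjusted p under 0.05, of which 156 lay on chromosome 5. On data simulated with each window's own spread, the same fit recovered none of the planted log2 differences of 1, 2 or 3 either. That spread came from 2 libraries per group, so the simulation may differ from the data. No conclusion about these windows is drawn from the absence of calls.

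**Figure D1:**
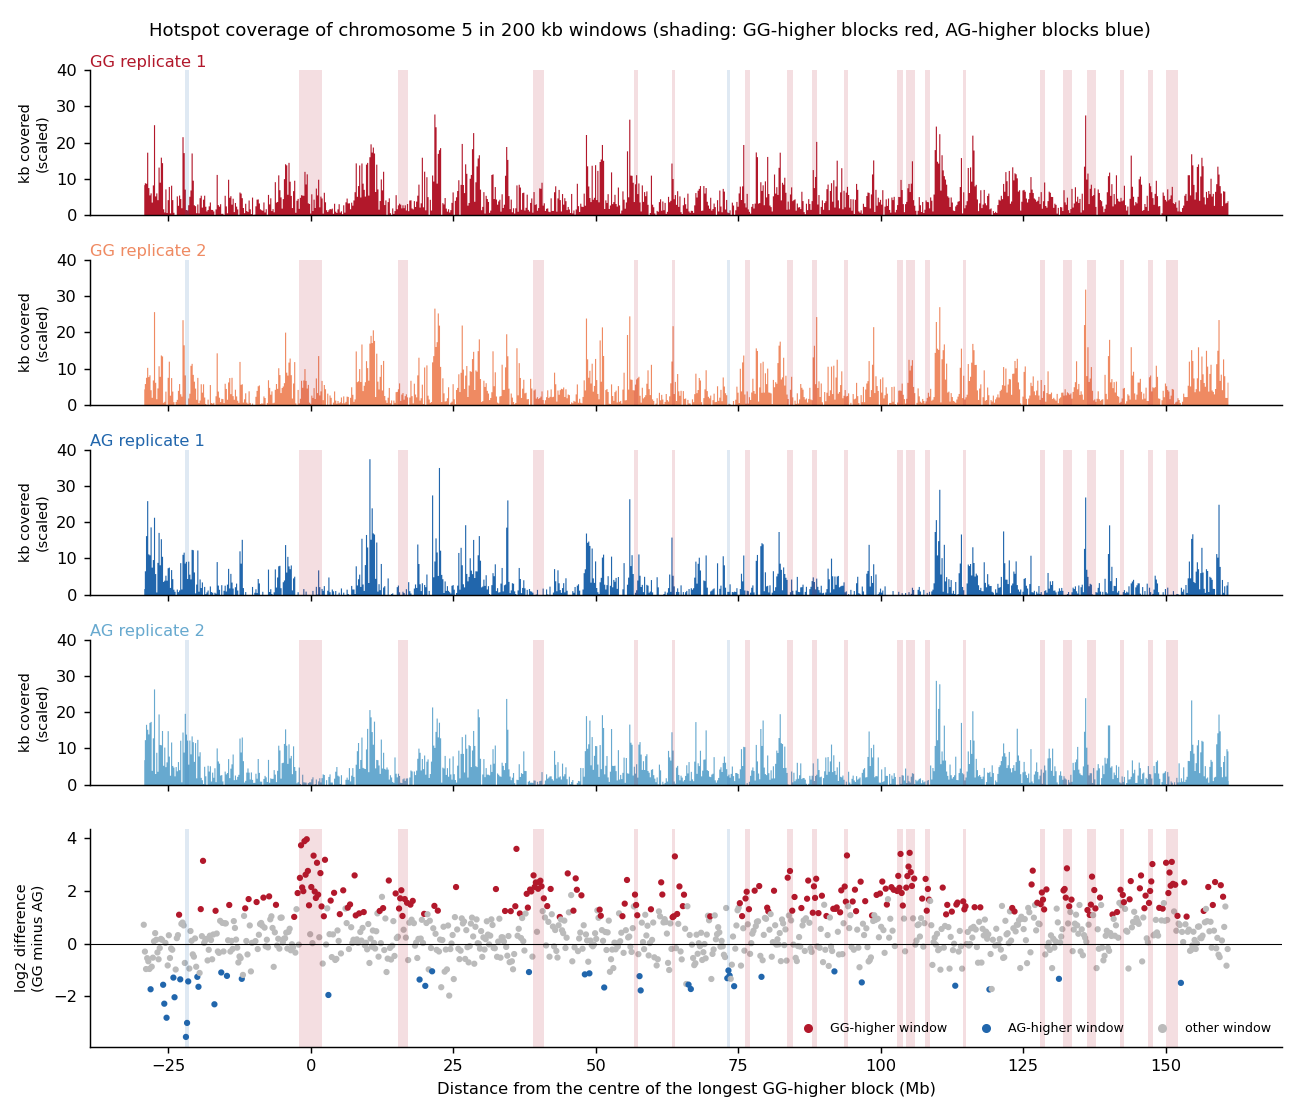
Scaled kb covered by hotspots in each 200 kb window of chromosome 5, for GG replicates 1 and 2 and AG replicates 1 and 2 from top to bottom, over the log2 difference of GG minus AG per window (only windows at or above the minimum). The horizontal axis is the distance in Mb from the centre of the longest GG-higher block, red shading marks the 19 GG-higher blocks, blue shading the 2 AG-higher blocks, and the AG panels are nearly empty under the red shading at 0.

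The choice of AG library decided how far the difference spread. Over the windows of chromosome 5 the median log2 difference was 0.90 for GG replicate 1 minus AG replicate 1, 0.72 for GG replicate 2 minus AG replicate 1, 0.16 for GG replicate 1 minus AG replicate 2 and 0.07 for GG replicate 2 minus AG replicate 2. These comparisons share libraries, so they are not separate evidence. Replicates of a group differed by a median of 0.13 for GG replicate 1 minus GG replicate 2 and -0.60 for AG replicate 1 minus AG replicate 2, and that AG value was the lowest of the 20 autosomes. Leaving out AG replicate 1, the median difference was 0.10 on chromosome 5 and -0.08 on the other autosomes. On chromosome 5, 192 of 947 windows (20.3%) were then GG-higher, beside 14.1% on the other autosomes. The AG-higher windows then numbered 132 (13.9%, beside 16.7% on the other autosomes). Leaving out AG replicate 2, 408 of 931 windows (43.8%) were GG-higher, beside 20.5% on the other autosomes. Over all autosomes the medians were 0.10 for either GG library minus AG replicate 1. They were -0.03 and -0.04 for GG replicates 1 and 2 minus AG replicate 2. The shift along the whole chromosome was thus mostly seen in the comparisons with AG replicate 1. A smaller one remained against AG replicate 2, where chromosome 5 ranked 4 of 20 in both comparisons. An excess of GG-higher windows over the other autosomes as a group was present with either AG library. Without AG replicate 2, chromosome 5 ranked 1 of the 20 autosomes in the share of GG-higher windows. Without AG replicate 1 the excess was not particular to chromosome 5, which ranked 2 in that share, after chromosome 17, and 4 by median difference.

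**Figure D2:**
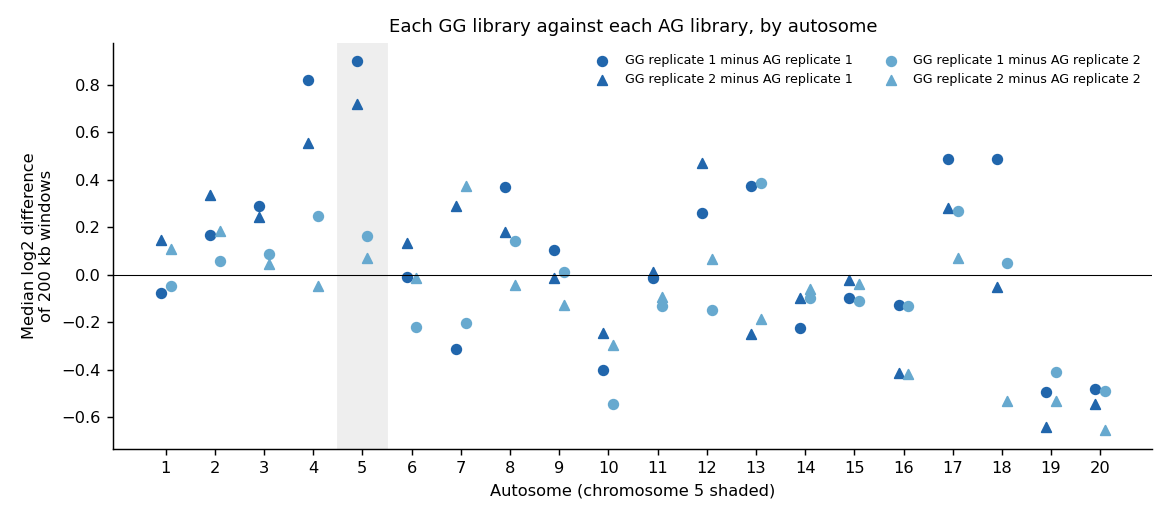
Median log2 difference of 200 kb windows on each of the 20 autosomes, for each GG library minus each AG library. Circles stand for GG replicate 1 and triangles for GG replicate 2, dark symbols for comparisons with AG replicate 1 and pale ones for AG replicate 2. On chromosome 5, shaded, the dark symbols lie at 0.90 and 0.72 and the pale ones at 0.16 and 0.07.

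**Figure D3:**
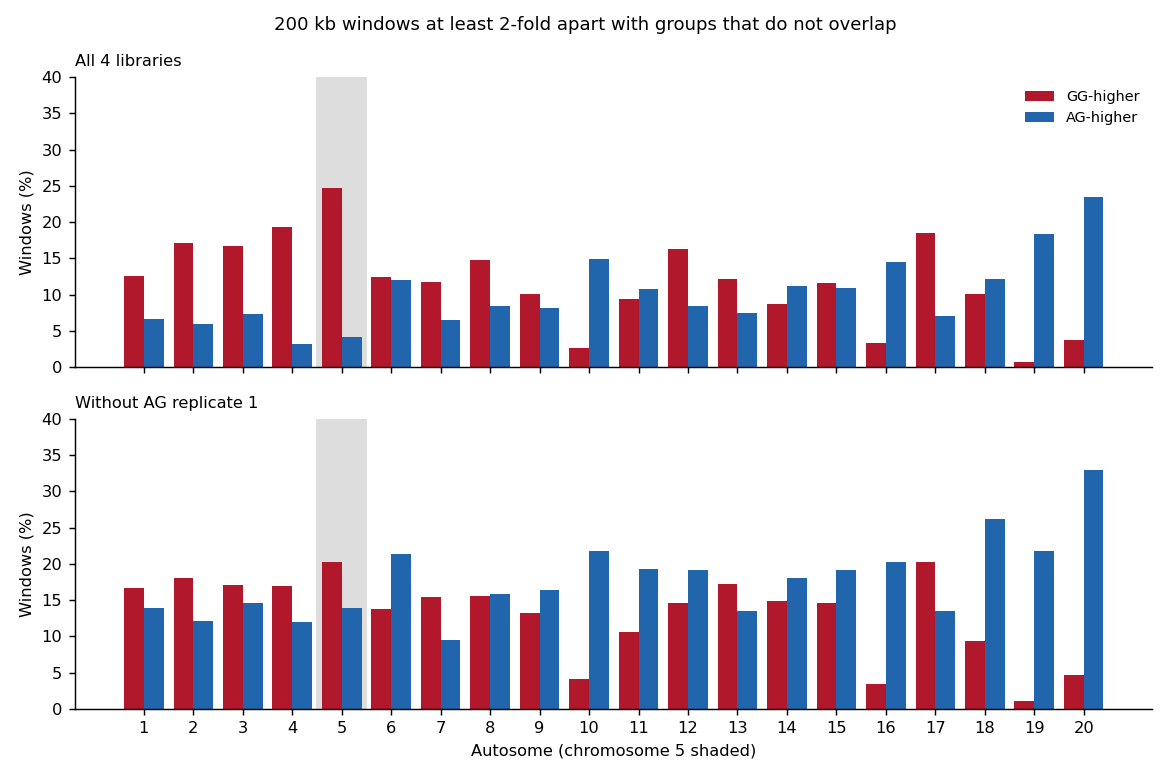
Share of 200 kb windows (percent) on each autosome that were GG-higher (red) or AG-higher (blue), with all 4 libraries above and without AG replicate 1 below. The GG-higher bar of chromosome 5, shaded, stands at 24.7% above and 20.3% below, and its AG-higher bar at 4.14% above and 13.9% below.

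Chromosomes 4 and 17 were the autosomes most like chromosome 5 in the share of GG-higher windows. On chromosome 4, 165 of 856 windows (19.3%) were GG-higher, and on chromosome 17, 87 of 471 (18.5%). The medians against AG replicate 1 were 0.82 and 0.55 on chromosome 4 with GG replicates 1 and 2, and against AG replicate 2 they were 0.25 and -0.05. Chromosome 17 had 0.49 and 0.28 against AG replicate 1 and 0.27 and 0.07 against AG replicate 2. Chromosome 17 matched chromosome 5 in its low density and narrow hotspots, with 30.1 and 25.4 hotspots per Mb in GG and 17.3 and 23.4 in AG, whereas chromosome 4 had 40.0 and 31.9 in GG and 19.3 and 31.4 in AG.

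Richly covered windows were the least often GG-higher, on chromosome 5 and elsewhere. All autosomal windows were put into 5 equal classes by their mean scaled coverage, and from the sparsest class to the richest 24.4%, 33.3%, 25.2%, 19.6% and 8.14% of the windows of chromosome 5 were GG-higher, against 16.4%, 17.1%, 14.7%, 11.1% and 3.36% on the other autosomes. In each class the GG-higher share on chromosome 5 was above that elsewhere. In the same order, AG-higher windows made up 5.91%, 3.61%, 3.40%, 3.38% and 3.49% on chromosome 5. On the other autosomes they made up 12.7%, 12.9%, 10.4%, 6.96% and 3.36%. Calls in both directions were thus fewest in the richest class on the other autosomes, so the fall there was not particular to GG-higher windows. The sparsest class took 26.9% of the windows of chromosome 5 and the richest 9.12%.

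Adjoining GG-higher windows were joined into blocks, with at least 3 such windows each and allowing a single failing window of the same sign between them. Chromosome 5 had 19 GG-higher blocks with a total of 24.0 Mb, 12.6% of its length, and only 2 AG-higher blocks with 1.20 Mb. The other autosomes had 135 GG-higher blocks over 5.20% of their length, chromosome 17 had 11 over 11.9% and chromosome 4 had 14 over 7.76%. Chromosome 3 had 20 over 10.7%, with 12 of at least 1 Mb, and chromosome 2 had 19 over 8.59%, with 8 of at least 1 Mb. By number, such blocks were thus not particular to chromosome 5. Block lengths on chromosome 5 ran between 600 and 4000 kb with a median of 800 kb, equal to the 800 kb median on the other autosomes, and 9 blocks reached 1 Mb. By length the blocks were thus not wider than elsewhere as a rule, and the remaining 10 were between 600 and 800 kb. Most GG-higher windows, 132 of 233, stood outside blocks. No block began before 27400001 or ended after 181600000, and 14 of the 19 lay beyond the midpoint of the chromosome.

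The longest block, chr5:27400001-31400000, was also the longest on any autosome, ahead of a 3800 kb block on chromosome 7. It had 134 and 114 hotspots in GG libraries, against 17 and 29 in AG libraries. These covered 129 and 105 kb in GG, against 13.4 and 17.7 kb in AG. Of its 20 windows, AG replicate 1 had no hotspot in 12 and AG replicate 2 in 4, while both GG libraries had hotspots in all. Both AG libraries were low to a like degree here, unlike over the chromosome as a whole, and the lower GG library was 5.37 times the higher AG library in scaled coverage, the largest such margin among the 19 blocks. The mean log2 difference was 2.20, and 17 of the 20 windows passed.

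The GG-higher windows with the largest differences came mostly from this block. In chr5:28600001-28800000 hotspots covered 13.4 and 5.01 kb in GG, and neither AG library listed a hotspot. Covered length in chr5:28200001-28400000 was 14.2 and 10.8 kb in GG, against 0 and 0.673 kb in AG. Neither AG library listed a hotspot in chr5:27600001-27800000, where GG had 6.62 and 7.30 kb. Of the other two, chr5:134400001-134600000 lay in another block, with 7.66 and 10.3 kb in GG against 0 and 0.662 kb in AG. The window chr5:65400001-65600000, with 9.81 and 16.9 kb in GG against 0 and 1.40 kb in AG, belonged to no block. In all 5 windows AG replicate 1 listed nothing, and AG replicate 2 listed under 1.5 kb.

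Further along lay a pair of neighbouring blocks with large differences. In chr5:133800001-135400000 hotspots covered 67.5 and 66.8 kb in GG, against 3.70 and 13.4 kb in AG, and the mean log2 difference of 2.43 was the largest of the 19 blocks. Its neighbour chr5:132200001-133400000 had 39.1 and 23.6 kb in GG, against 1.21 and 7.69 kb in AG, with all 6 windows passing. The AG libraries were well apart in both, AG replicate 1 being the lower. A smaller block nearby, chr5:137200001-138000000, had 16.1 and 9.80 kb in GG, against 1.23 and 2.50 kb in AG. The 10 Mb between 130000001 and 140000000 had the highest share of GG-higher windows on the chromosome, 22 of 49 (44.9%), and no AG-higher window.

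Towards the distal end, chr5:179400001-181600000 was the block with the next most windows after the longest, with 55.5 and 33.3 kb in GG, against 3.13 and 10.9 kb in AG. Hotspots numbered 66 and 46 in GG and 8 and 18 in AG. In chr5:176400001-177200000 hotspots covered 33.3 and 26.7 kb in GG, against 2.59 and 7.56 kb in AG, and all 4 windows passed. The block chr5:161400001-163000000 had 35.4 and 26.9 kb in GG, against 1.60 and 11.2 kb in AG, and chr5:165600001-167200000 had 60.9 and 52.2 kb in GG, against 11.5 and 20.97 kb in AG. The GG libraries differed little in the last of these, and AG replicate 2 stood at a larger part of the GG level there than in the longest block.

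Among the other named blocks, chr5:68400001-70400000 had 54.3 and 26.6 kb in GG, against 2.73 and 9.25 kb in AG. The GG libraries were far apart in this block, yet the lower GG value stayed above the higher AG value. In chr5:44800001-46400000 hotspots covered 24.4 and 24.9 kb in GG, against 3.23 and 11.5 kb in AG, and its mean log2 difference of 1.27 was the smallest of the 19. The block chr5:113000001-114000000 had 27.3 and 17.4 kb in GG, against 4.98 and 4.45 kb in AG. The most densely covered block in GG was chr5:117400001-118200000, with 60.2 and 64.3 kb in GG, against 11.5 and 12.1 kb in AG. In both of these blocks the AG libraries lay close together. The mean log2 differences of the remaining 7 blocks, of 3 or 4 windows each, lay between 1.44 and 2.38.

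**Figure D4:**
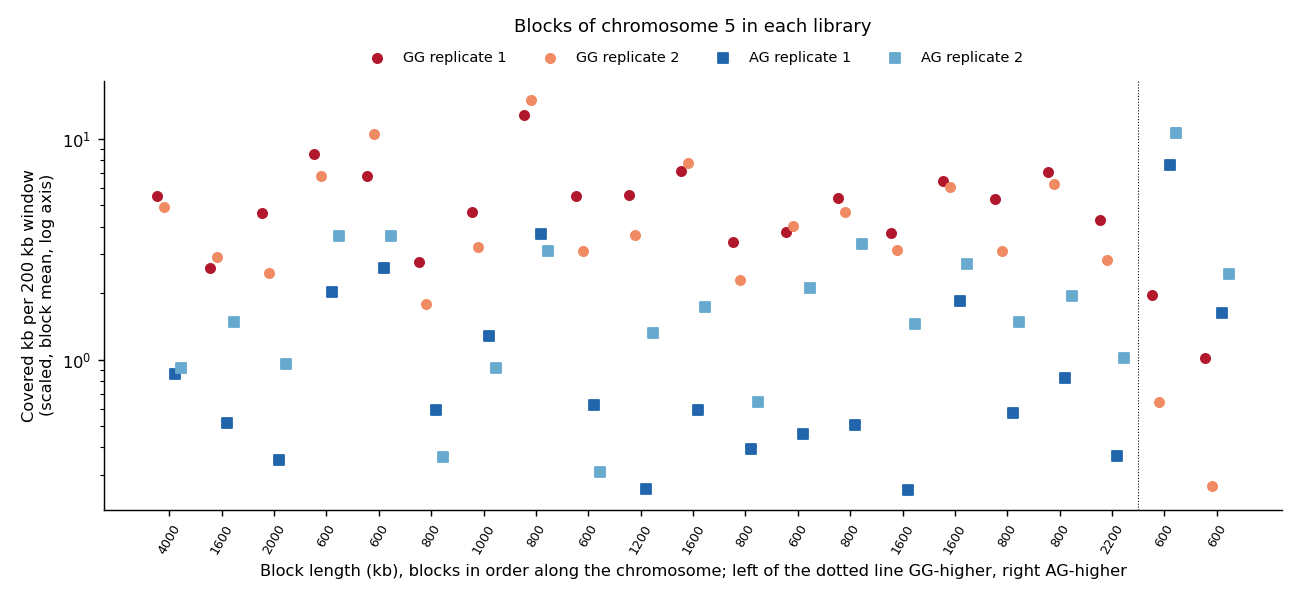
Mean scaled kb covered per 200 kb window (log axis) in each library for the 19 GG-higher blocks of chromosome 5, in order along the chromosome and labelled by block length in kb, and for the 2 AG-higher blocks right of the dotted line. Red and orange circles are GG replicates 1 and 2, dark and pale blue squares are AG replicates 1 and 2. In each GG-higher block both circles lie above both squares, as the rule demands, and AG replicate 1 is the lower square in 15 of the 19.

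Over all 19 GG-higher blocks together, GG libraries had about the coverage of the rest of the chromosome and AG libraries had far less. Hotspots covered 3.14% and 2.49% of the block length in GG, against 0.331% and 0.740% in AG. In the rest of chromosome 5 the coverage was 3.17% and 2.71% in GG, against 1.48% and 2.54% in AG. Blocks thus had 0.991 and 0.918 times the coverage of the rest of the chromosome in GG, and 0.223 and 0.291 times in AG. The same libraries chose the windows, so the size of these ratios comes in part from the choice, and the libraries that did not choose blocks, given further on, showed a smaller shortfall in AG. Of the 120 windows in these blocks, 0 and 1 lacked any hotspot in GG, against 56 and 21 in AG, where the rule itself asks for GG hotspots in the 101 windows that passed.

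Hotspots in the blocks numbered 817 and 652 in GG, against 111 and 251 in AG. Summed over the libraries of each group, GG had 4.06 times the number of hotspots of AG and 1.29 times their mean width, which together gave 5.25 times the covered length. With same-numbered libraries set side by side, the ratio of mean widths was 1.29 in replicate 1 and 1.29 in replicate 2. The ratio of numbers was 7.36 in replicate 1 and 2.60 in replicate 2. Number and width both enter the covered length on which these libraries chose the blocks. Ratios above 1 thus come in part from the choice, and their likeness between replicates is no separate evidence. In GG-higher blocks of the other autosomes the corresponding values were 3.13 for number, 1.28 for mean width and 4.001 for covered length. Median widths inside the blocks were 810 and 807.5 bp in GG, against 674 and 701 bp in AG. Outside the blocks they were 855 and 877 bp in GG, against 825 and 841 bp in AG. Within their own lists, the hotspots in blocks had median score percentiles of 37.3 and 38.0 in GG and 37.5 and 41.3 in AG. In the rest of the chromosome these were 44.0 and 46.1 in GG and 46.8 and 46.8 in AG, so block hotspots scored lower in each library.

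Most of the 38 edges of the GG-higher blocks were crossed within a single window. The median log2 difference was 1.68 in the outermost window inside and -0.02 in the first window outside, and the median step between them was 1.59, with single steps between 0.05 and 3.49. The window outside was below 0 at 20 edges, between 0 and 1 at 12 and above 1 without joining the block at 6. Because a block ends where the rule fails, in the same libraries, a fall at each edge is built in, and so is a tendency for GG to be lower and AG higher outside. Scaled GG coverage was lower outside at 31 edges and scaled AG coverage higher outside at 32, with both at 25. The median change across an edge, inside minus outside, was 0.57 in GG and -0.90 in AG on the log2 scale. In the first window outside, the groups overlapped at 32 edges, AG lay above GG at 4 and GG above AG at 2.

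Edges of the longest block show this in single libraries. Scaled coverage in the last window before 27400001 was 1.87 and 0.566 kb in GG, against 0 and 4.82 kb in AG. The window just after 31400000 had 0.564 and 1.45 kb in GG, against 1.22 and 2.94 kb in AG. AG replicate 2 was the highest library on both flanks, while inside the block it averaged 0.912 kb per window and the GG libraries 5.49 and 4.90 kb.

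Blocks were then chosen in 1 replicate of each group and read in the other, so that the reading used libraries that had no part in choosing the blocks. Choosing in replicate 1 gave 61 GG-higher blocks with 71.0 Mb on chromosome 5, of which 41 (67.2%, beside 68.8% on all autosomes) had the same direction in replicate 2. At least 2-fold differences were found in 4 (6.56%, beside 20.9% on all autosomes), and the median log2 difference was 2.02 where chosen and 0.30 where read. Choosing in replicate 2 gave 18 blocks with 16.8 Mb, and all 18 had the same direction in replicate 1, beside 93.0% on all autosomes. Of these, 15 (83.3%, beside 58.9% on all autosomes) were at least 2-fold, with a median of 1.83 where chosen and 2.005 where read. The share with the same direction was near the background both ways. The share at least 2-fold was below the background in one reading and above it in the other, and the reading above it was the one taken in AG replicate 1.

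Some blocks came back in both readings. The stretch chosen in replicate 1 at chr5:26800001-30600000 had a log2 difference of 2.76 there and 1.56 in replicate 2, the largest value among the 61. Choosing in replicate 2 gave chr5:27400001-29000000 with 2.55 and 3.36 in replicate 1, and chr5:29800001-31400000 with 2.13 and 1.96 in replicate 1. The block at chr5:117400001-118200000, chosen in replicate 2 with 2.12, read 1.67 in replicate 1, and the stretch chosen in replicate 1 at chr5:117400001-118600000 with 1.45 read 1.42 in replicate 2. The other two stretches that were over 2-fold when read in replicate 2 were chr5:67800001-69000000 at 1.497 and chr5:161400001-162200000 at 1.24. Stretches over other named blocks fell below 2-fold in that reading. The stretch chosen in replicate 1 at chr5:130200001-135600000, which spans the pair of neighbouring blocks, had 2.66 there and 0.72 in replicate 2. For chr5:178800001-182000000 these values were 2.53 and 0.78. Choosing in replicate 2 gave chr5:132200001-133200000 with 1.73 and 3.09 in replicate 1, and chr5:133800001-135400000 with 1.90 and 2.96. AG-higher blocks numbered 1 when chosen in replicate 1 and 11 when chosen in replicate 2, against 105 and 213 on all autosomes. They were thus rare beside the 61 GG-higher blocks of the first choice, but not beside the 18 of the second. The block chosen in replicate 1 had the same direction in replicate 2, beside 82.9% on all autosomes. Of the 11 chosen in replicate 2, 3 (27.3%, beside 57.7%) had the same direction in replicate 1.

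The edges were shallower in the libraries that did not choose them. For blocks chosen in replicate 1, coverage read in replicate 2 was 1.98% inside and 2.38% outside in GG, against 1.54% inside and 2.22% outside in AG. Both GG and AG were thus lower inside than outside, and the ratio of GG over AG was 1.28 inside and 1.07 outside. For blocks chosen in replicate 2, coverage read in replicate 1 was 2.78% inside and 2.14% outside in GG, against 0.674% inside and 1.01% outside in AG. That ratio was 4.13 inside and 2.12 outside, so GG replicate 1 exceeded AG replicate 1 on both sides of the edges.

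**Figure D5:**
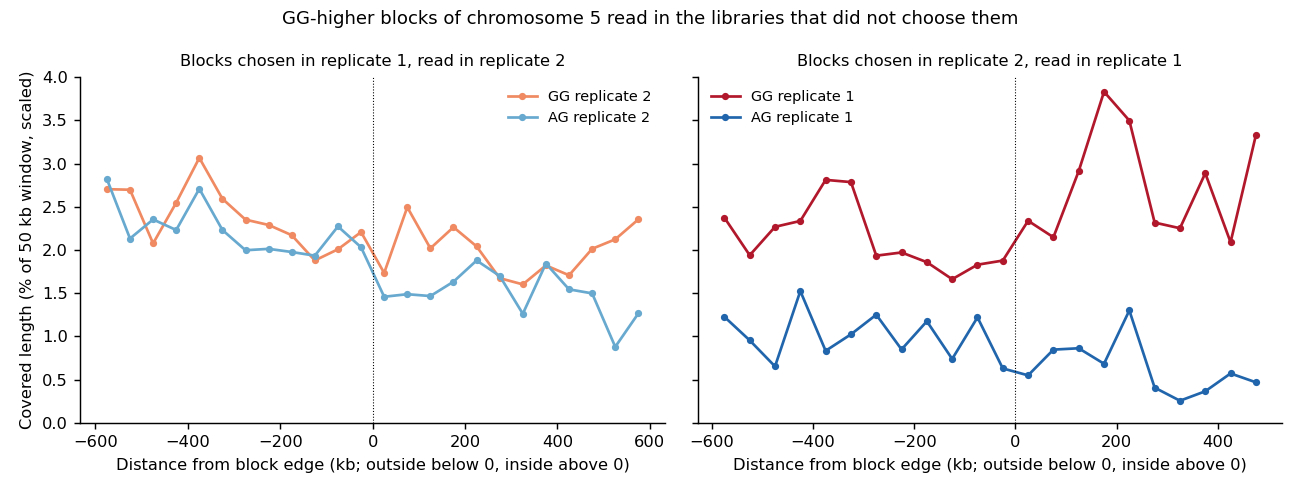
Mean scaled coverage (percent of a 50 kb window) by distance in kb from the edges of GG-higher blocks of chromosome 5, outside below 0 and inside above 0, in the libraries that did not choose the blocks. GG is in red or orange and AG in blue: the curves of replicate 2 (left) lie close together with a ratio of 1.28 inside, and those of replicate 1 (right) lie apart on both sides with ratios of 4.13 inside and 2.12 outside.

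The AG-higher windows were concentrated near the start of the chromosome. The first 10 Mb had 12 AG-higher windows of 50 (24.0%) and 1 GG-higher window, with a median log2 difference of -0.54. The block chr5:7400001-8000000 had 6.92 and 2.06 kb covered in GG, against 17.9 and 30.9 kb in AG, with a mean log2 difference of -2.66. In its first window, chr5:7400001-7600000, hotspots covered 1.83 and 0 kb in GG, against 7.19 and 13.5 kb in AG. The adjoining chr5:7600001-7800000 had 1.71 and 0 kb in GG, against 3.496 and 11.9 kb in AG. Both AG libraries, AG replicate 1 included, were thus above both GG libraries here. The other 3 named windows were chr5:4000001-4200000 with 0.860 and 0 kb in GG against 3.14 and 6.07 kb in AG, chr5:3600001-3800000 with 1.03 and 1.08 kb in GG against 3.13 and 10.03 kb in AG, and chr5:12400001-12600000, where GG had no hotspot and AG 0.538 and 4.49 kb. The other AG-higher block, chr5:102400001-103000000, had 3.59 and 0.863 kb in GG, against 3.802 and 7.10 kb in AG.

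Sharing of single regions was low on chromosome 5. Of 13737 merged regions, 10956 (79.8%) were found in a single library, against 74.6% on the other autosomes, the highest share of the 20. Only 507 (3.69%) were found in all 4 libraries, 2.66 per Mb, against 6.05% and 5.09 per Mb on the other autosomes, the lowest of the 20. Chromosome 17 was nearly equal, with 78.9% of its regions in a single library and 3.83%, or 2.70 per Mb, in all 4, and chromosome 18 had 78.8%, 4.28% and 2.93 per Mb. The GG-only regions, found in both GG and neither AG library, numbered 794 (5.78%, beside 5.48% on all autosomes), and the AG-only regions 183 (1.33%, beside 2.12%). Pairs that mix the groups shared regions and no others at 133 for GG replicate 1 with AG replicate 1, 285 for GG replicate 1 with AG replicate 2, 122 for GG replicate 2 with AG replicate 1 and 234 for GG replicate 2 with AG replicate 2. The GG-only count was above each of these and the AG-only count was between them. In the same order, these mixed pairs made up 0.968%, 2.07%, 0.888% and 1.70% of regions on chromosome 5. Over all autosomes they made up 1.58%, 1.82%, 1.29% and 1.47%. GG-only regions above each mixed pair were thus the pattern of all autosomes too, where AG-only regions, at 2.12%, were also above each. The ratio of GG-only to AG-only regions, 4.34, was the highest of the 20 autosomes, with 3.81 on chromosome 4 and 3.41 on chromosome 17. Regions seen once had a median width of 736 bp, against 3001 bp for regions in all 4 libraries. On the other autosomes these medians were 757 and 2924 bp. A merged region spans all its hotspots, so regions in more libraries are in part wider by construction.

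In bp, the GG lists overlapped with a Jaccard index, the shared length over the joint length, of 0.188 on chromosome 5 and the AG lists with 0.132. The pairs mixing the groups lay between 0.105 and 0.130. Over all autosomes these were 0.247 for GG, 0.168 for AG and between 0.143 and 0.173 for the mixed pairs. Every pair thus overlapped less on chromosome 5, and the AG pair exceeded the highest mixed pair there by 0.002. On chromosome 17 the index was 0.204 for GG, 0.140 for AG and between 0.111 and 0.139 for the mixed pairs. Low overlap of every pair was thus not particular to chromosome 5. Of hotspots in GG replicate 1 on chromosome 5, 29.0% were found again in GG replicate 2, against 38.6% on the other autosomes. Of hotspots in AG replicate 1, 31.7% were found again in AG replicate 2, against 34.7% elsewhere. In GG replicates 1 and 2, 34.7% and 34.0% of them were found. Of hotspots in AG replicate 2, 18.2% were found in AG replicate 1, against 22.7% and 21.8% in GG replicates 1 and 2. Hotspots of each AG library on chromosome 5 were thus found less often in the other AG library than in either GG library. Those of GG replicate 1 were found less often in AG replicates 1 and 2, at 14.9% and 17.6%. The lists differed in length, and the effect of that was not tested. By score the spread was wider: in the top 10% of GG replicate 1 by score, 78.7% of its hotspots on chromosome 5 were found in GG replicate 2, and in the lowest 10%, 11.95%.

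Inside the GG-higher blocks, few regions were shared between libraries. Of 1534 regions there, 1311 (85.5%) were in a single library, 131 (8.54%) were GG-only, 3 were AG-only and 13 (0.847%) were in all 4. In the rest of the chromosome 79.0% were in a single library, 5.43% were GG-only and 4.05% were in all 4. Blocks made up 12.6% of the length and held 16.5% of GG-only, 1.64% of AG-only and 2.56% of all-4 regions of the chromosome. The same lists chose the blocks as higher in GG. More GG-only and fewer AG-only and all-4 regions inside them are thus largely given by that choice. The GG pair overlapped with a Jaccard index of 0.121 in the blocks, lower than its 0.188 on the whole chromosome. Of the hotspots of GG replicate 1 in blocks, 21.7% were found in GG replicate 2, and 27.6% of those of GG replicate 2 were found in GG replicate 1. Most single hotspots of either GG library in the blocks were thus not listed in the other GG library.

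Regions present in all 4 libraries included the strongest on the chromosome. The region chr5:155664170-155668710 held the highest-scoring hotspot of the whole list in each library, with scores of 1312 and 1330 in GG and 1200 and 1371 in AG. The adjacent region chr5:155661958-155663387 scored 454 and 425 in GG, against 466 and 612 in AG, and ranked 10 and 7 in the GG lists and 8 and 9 in the AG lists. The score is the authors' own, and its scale is not stated in the labels, so scores of different lists are not set against each other. The next regions were chr5:83214303-83215880, chr5:31760762-31762195 and chr5:164123373-164124711, which ranked between 7 and 80 in their lists. None of the 5 lay in a GG-higher block. Regions in all 4 libraries had a median covered length of 2049 and 2031 bp in GG, against 1315 and 1500 bp in AG. Covered length is what the chromosome was selected on, and these medians were not computed for other autosomes. They cannot show whether the difference is particular to chromosome 5.

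Group-only regions ranked far lower. The GG-only regions whose weaker score was highest were chr5:60210923-60211195 with scores of 17.2 and 15.6, chr5:183394676-183395092 with 11.7 and 16.6, chr5:106886458-106887926 with 12.2 and 11.4, chr5:81182960-81186182 with 12.7 and 11.1, and chr5:137724314-137725144 with 11.05 and 12.95. Only the last of these 5 lay in a GG-higher block. The AG-only regions chosen in the same way were chr5:87007737-87011963 with 11.04 and 11.07, chr5:50785178-50787524 with 10.6 and 11.1, and chr5:183485243-183486925 with 9.73 and 10.96. None of these 3 lay in a GG-higher block.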

How the data were processed

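DNase-seq hotspots were listed for 2 GG and 2 AG morula libraries. The authors deposited 1 list per library, not pooled, with a chromosome, start, end and score per hotspot, and a false discovery rate of 0.01 in the list's name. What the deposited score measures, and which caller the authors used, is not given in the sources used here. It only ranked and filtered hotspots within a list, except that named regions were ordered by their lowest score across lists. The build is rheMac8, and the tools named are deepTools 3.3.1, SAMtools, Bowtie2 and Trim Galore, whose roles are not stated, per the submitters' processing notes. Without read counts the depth of each library is unknown, counting intervals cannot be computed, and list length may follow sequencing depth.

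Covered bp were summed in 200 kb windows of all 20 autosomes and multiplied by 0.851 and 0.932 for GG and 1.28 and 1.03 for AG to reach equal autosomal totals. Log2 values used an offset of 500 bp and a minimum mean of 400 bp. Limma 3.58.1 (R 4.3.3; lmFit and eBayes, no trend) tested all windows, without the replicate number as a block, with Benjamini-Hochberg adjustment. A planned exact permutation test of median widths is not reported, since width enters the covered length that selected the chromosome. Regions merged hotspots that overlap or touch, and counted as present with at least 1 bp. The window and block steps were tested on simulated data. Named were the 12 GG-higher blocks with the most windows, every AG-higher block, the 5 windows per direction with the largest difference among those with no overlap, and the 5 all-4, 5 GG-only and 3 AG-only regions with the highest weakest score. Blocks chosen in 1 replicate were picked for naming after their values were seen, and not every such block that overlaps a named block is given. The chromosome, the block rule and the lists of regions were chosen with earlier results of these data known. Software was scipy 1.17.1, pandas 2.3.3, numpy 2.4.6 and matplotlib 3.10.9 under Python 3.11.15. The labels do not state whether same-numbered libraries belong together, and the main fit did not pair them. The deviations of same-numbered libraries had a correlation of -0.0376 over 13238 windows, which cannot show whether they shared a batch. Genes and sequences were not analysed here.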

Additional observations from a re-analysis of the deposited data

How the results depend on the processing

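The 19 blocks were built from the same libraries, so a mean log2 difference above 0 under other settings is largely given by their choice and is no sign of stability. Their mean differences fell below 2-fold in 3 without AG replicate 1, 5 in the higher-scoring 50% of each list, 6 in lists of equal covered length, 8 with an offset of 2000 bp and 5 when centred within chromosomes. The GG minus AG difference in the chromosome's share of covered length was 1.20 points, between 0.465 (without AG replicate 1) and 1.93 (without AG replicate 2) with 1 library left out, 0.664 in lists of equal covered length and 0.776 in the higher-scoring 50%. That in median width was 32.5 bp, between 22 and 43 bp with 1 library left out, 94 bp in lists of equal number, 186 bp in lists of equal covered length and 47 bp in the higher-scoring 50%. Leaving out 1 library at a time gave between 192 and 408 GG-higher windows on chromosome 5 (233 with all), between 35 and 132 AG-higher windows (39), between 21 and 47 blocks (19) with between 20.4 and 63.2 Mb (24.0), between 982 and 4648 GG-only regions (794) and between 258 and 3318 AG-only regions (183), where a group of 1 library makes group-only regions easier to meet. Without AG replicate 1 the blocks shared 15.4 Mb with those reported, 64.2% of the length reported and 75.5% of the length without that library; this overlap was added after seeing the data. In the order GG-higher windows, AG-higher windows, blocks and Mb, values that moved by over 1.5 times were as follows. Lists of equal covered length gave 153, 90 and 11.4 Mb, and the higher-scoring 50% 13.4 Mb. An offset of 2000 bp gave 133, 16 and 13.6 Mb. Centring each library within chromosomes gave 119, 130, 9 and 10 Mb, so that AG-higher windows were then the more numerous. Windows of 100 kb gave 472, 136, 11 and 11.7 Mb. A limit of 1.5-fold gave 69 AG-higher windows, 34 blocks and 37.2 Mb, and 3-fold gave 138, 16, 11 and 13.2 Mb. Numbers of hotspots in place of covered bp gave 29 blocks, and no bridging 15.4 Mb. Group-only regions fell to 357 GG-only and 89 AG-only in the higher-scoring 50% and to 332 GG-only in lists of equal covered length. Limma called 1 window of 1 Mb and 14 windows with a variance trend (10 GG-higher, 3 of them on chromosome 5), and 0 in its other alternatives, with 778 to 2185 windows at an unadjusted p under 0.05. With the replicate number as a block it called 0, with 1485 at an unadjusted p under 0.05. The number and length of the blocks thus depend on the cut-offs and on AG replicate 1, the unknown depth of the lists limits what an empty window means, and causes were not tested.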
